A study of Mus musculus with 9 samples.

Results

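Complex I subunits and assembly factors were described in RNA from mouse brain as the nuclear genes named Nduf, which numbered 46 of the 21853 genes in the tables. All 46 reached 10 in 3 or more libraries and so belonged to the 15411 genes tested. Members were taken by gene symbol alone, but the list was drawn up with earlier results of these data known. They comprised 7 core subunits, 9 accessory subunits of the peripheral arm, 9 of the proximal membrane arm, 10 of the distal membrane arm, the acyl carrier protein Ndufab1, 8 assembly factors and the pair Ndufa4 and Ndufa4l2.

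Complex I is the NADH dehydrogenase of the respiratory chain. It takes electrons from NADH at a flavin in its peripheral arm, passes them along iron-sulfur clusters to ubiquinone, and pumps protons through its membrane arm. Core subunits carry out these steps, accessory subunits surround and stabilise them, and assembly factors help to build the complex without being part of it. Neurons depend on this chain for ATP. The subunits encoded by mitochondrial DNA were not analysed here.

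Poly(A) RNA was sequenced in 9 libraries, 3 in each of 3 groups. WT-Control was wild-type mice given pAAV-GFAP(pro)-Control-mCherry, HD-Control was N171-82Q mice given the same virus, and HD-WNT5B was N171-82Q mice given pAAV-GFAP(pro)-WNT5B-P2A-mCherry, all into the brain, with the striatum named in the series text. N171-82Q mice carry a transgene for an N-terminal fragment of mutant huntingtin and serve as a model of Huntington's disease (HD). All 3 groups therefore carried a virus with mCherry behind the astrocyte promoter GFAP, and there was no group without virus and no wild-type group with WNT5B. The labels used here give neither age nor sex and do not say which animals the libraries came from, so p-values measure the spread between these libraries, which may be technical.

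The libraries of the 3 groups did not have the same depth or spread. Each value is an estimated read number divided by 1 factor per library, and division by the value of 1 read gives depths of 67.8 to 77.8 M for WT-Control, of 69.8 to 90.6 M for HD-Control and of 37.3 to 52.1 M for HD-WNT5B. The median SD of log2 values between replicates was 0.0393, 0.0333 and 0.233, so a change had to be larger to be called against HD-WNT5B. Wnt5b, the delivered ligand, stood at 74.6, 63.8 and 57.7 in WT-Control, at 63.8, 44.2 and 49.3 in HD-Control and at 184, 22.5 and 212 in HD-WNT5B. The second library labelled HD-WNT5B was thus below every HD-Control library, against the direction of its label, and whether the mouse gene captures the transgene is not stated in the labels. Without that library, 45 of 46 members had the same call against HD-Control and 46 of 46 against WT-Control, and the largest shift of a member's log2 change was 0.31, for Ndufaf6. The exception, Ndufaf4, is described with the assembly factors. The least abundant member still had 96 reads in the library where it was lowest.

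The upstream sequence of a few members is given first, because the regulators of mitochondrial genes known as NRF1, the ETS family, YY1 and the ERR receptors recognise short DNA motifs that can be searched for. Promoter windows of RefSeq (build GRCm38.p6, 250 bases before to 50 after the start) were held for 40 of the 46 members. On either strand, the NRF1 letters (GCGCA, any base, then GCGC) lay in 9 of these 40 (22.5% against 5.19% of 27025 genes with a window) and the YY1 letters AAGATGGC in 8 (20.0% against 3.19%). The ETS letters CCGGAAG lay in 6 (15.0% against 9.93%) and the ERR letters TCAAGGTCA in 0 (0.466% of all genes). The 27025 genes were not limited to those tested here, while every member was tested. No 2 of the 27 matches overlapped within a window, but the NRF1 site of Ndufa5 was counted once in each of its overlapping windows. Of members higher in HD-Control than WT-Control, 4 of 18 with a window held the NRF1 letters, and of those lower, 2 of 14. The 120 bases before the start are printed for 6 members whose changes are described here, 3 without any of these motifs and 3 with the NRF1 letters, which stand in capitals. Motifs and members were chosen after values had been seen, and a match is a description of letters only.
Ndufv2, chr17:66101560-66101679, minus strand: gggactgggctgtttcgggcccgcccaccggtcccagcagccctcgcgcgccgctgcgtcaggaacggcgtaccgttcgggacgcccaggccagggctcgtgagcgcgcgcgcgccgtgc
Ndufv3, chr17:31519995-31520114, plus strand: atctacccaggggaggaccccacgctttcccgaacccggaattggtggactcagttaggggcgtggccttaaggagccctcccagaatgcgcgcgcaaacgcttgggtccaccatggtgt
Ndufb2, chr6:39592445-39592564, plus strand: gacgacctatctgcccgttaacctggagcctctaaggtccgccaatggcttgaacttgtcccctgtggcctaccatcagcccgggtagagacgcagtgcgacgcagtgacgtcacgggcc
Ndufa11, chr17:56717642-56717761, plus strand: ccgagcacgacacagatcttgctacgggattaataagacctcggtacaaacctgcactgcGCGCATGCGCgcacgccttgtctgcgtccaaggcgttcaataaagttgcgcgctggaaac
Ndufs5, chr4:123718187-123718306, minus strand: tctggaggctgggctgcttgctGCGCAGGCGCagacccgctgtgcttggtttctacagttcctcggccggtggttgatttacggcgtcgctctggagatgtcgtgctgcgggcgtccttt
Ndufaf4, chr4:24897963-24898082, plus strand: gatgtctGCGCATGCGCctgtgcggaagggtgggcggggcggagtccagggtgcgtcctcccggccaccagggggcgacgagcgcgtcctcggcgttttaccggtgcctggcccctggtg

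Levels of the members were first set side by side within WT-Control, per kilobase of the longest protein-coding transcript. Ndufa4, once counted with complex I and now placed in complex IV, was the most abundant at 9596 per kb. Ndufb9 (7505 per kb) and Ndufb10 (7125 per kb) of the distal membrane arm followed. Assembly factors were lower, between 138 per kb for Ndufaf6 and 914 per kb for Ndufaf3, and the paralog Ndufa4l2 was last at 115 per kb. These levels depended on which transcript was taken, for example for Ndufb2 and Ndufab1, whose longest transcripts have 4371 and 3479 bases while the median transcripts have 2413 and 984. Per kb of the median transcript, Ndufa4 was again first at 12725, but Ndufs1 was second at 11544 (2824 by the longest), and Ndufb10 and Ndufb8 followed at 8292 and 7749.9 (Ndufb8 1988 by the longest). Among the 36 structural subunits, Ndufab1 included and the Ndufa4 pair and assembly factors left out, the SD of log2 levels per kb was 0.954 to 0.956 in the WT-Control libraries.

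In HD-Control, members changed in both directions by small amounts against WT-Control. Of the 46, 23 were higher and 15 lower by limma's moderated test (Benjamini-Hochberg adjusted p under 0.05 over all genes tested), and 8 were not called. Of all genes tested, 43.1% were called higher and 39.9% lower. The median log2 change was 0.07 over the members and 0.02 over all genes, and members ranged from -0.91 to 0.54. None of the 46 rose by 1.5-fold (background 15.2%) and 3 fell by that much (background 17.9%). Replicates of the groups did not overlap for 22 members with HD-Control above (43.6% of all genes tested) and for 16 with HD-Control below (40.4% of all genes). With a single spread for all 9 libraries, which mixes in the wider HD-WNT5B group, 13 members were called higher and 9 lower.

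**Figure D1:**
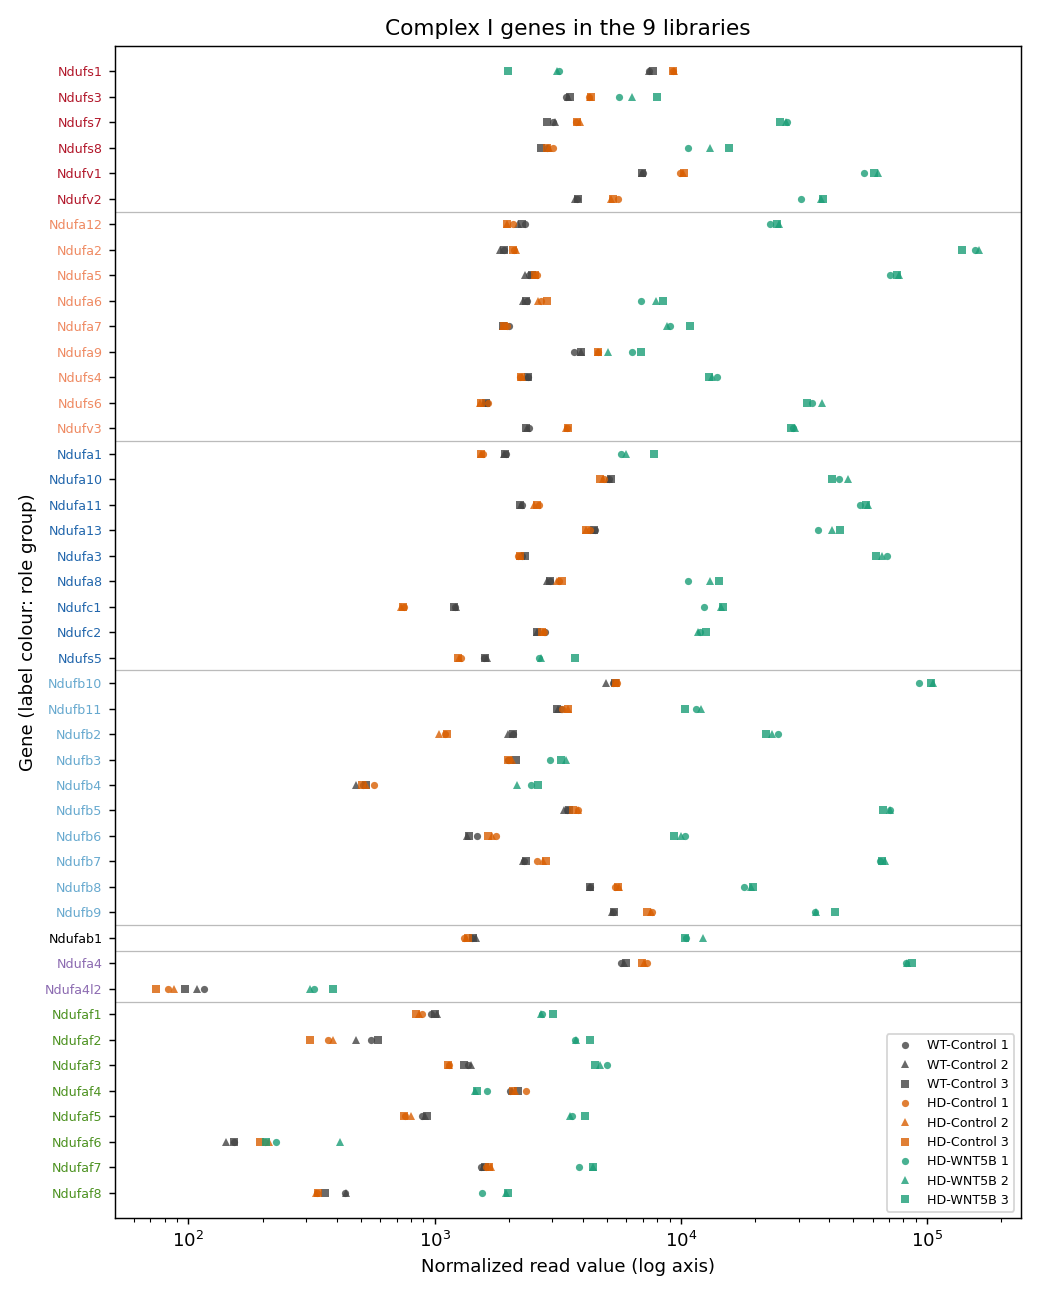
Normalized value (log axis) of the members described here in the 9 libraries, 1 row per gene, with label colour for the role, point colour for the group and point shape for the replicate. WT-Control and HD-Control points lie close together, while the 3 HD-WNT5B points lie to the right for most members and to the left for Ndufs1.

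Core subunits moved upwards in HD-Control, with 6 of 7 called higher, 0 lower (background 43.1% and 39.9%) and log2 changes from 0.06 to 0.54. Ndufv1, on chromosome 19 (4007384 to 4012806, mm10), binds NADH and the flavin and receives the first electrons. Its values were 6998, 6946 and 6958 in WT-Control and 9932, 10177 and 10277 in HD-Control. Every HD-Control library lay above every WT-Control library, and the log2 change was 0.54 (SE 0.02, limma adjusted p = 1.9e-15). Ndufv2, the neighbouring iron-sulfur subunit, gave 3769, 3725 and 3803, then 5532, 5184 and 5306, without overlap (log2 change 0.50, SE 0.02, limma adjusted p = 4.8e-13). The third flavoprotein subunit, the accessory Ndufv3, gave 2425, 2359.7 and 2349, then 3454, 3415 and 3465 (log2 change 0.53, SE 0.02, limma adjusted p = 1.2e-14). Ndufv1, Ndufv2 and Ndufv3 were therefore each higher, and they held none of the 4 motifs in their promoter windows. Other accessory subunits of the peripheral arm went both ways, as described below.

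Changes of the other core subunits described here were smaller. Ndufs1, which carries iron-sulfur clusters of the peripheral arm, stood at 7428, 7384 and 7733 in WT-Control and at 9241, 9388 and 9240.1 in HD-Control (log2 change 0.31, SE 0.03). The groups did not overlap. Ndufs7, next to ubiquinone with the last iron-sulfur cluster, had 3029.8, 3087 and 2854, then 3739.8, 3880.1 and 3787 (log2 change 0.35, SE 0.02). Ndufs3 had 3412, 3492 and 3533, then 4242, 4252 and 4315 (log2 change 0.30, SE 0.02). Ndufs8, an iron-sulfur subunit beside Ndufs7, was not called, at 2857, 2876 and 2696 against 3033, 2916 and 2853, with overlapping groups (log2 change 0.06, limma adjusted p = 0.0528). It passed the threshold as higher under some alternatives, such as without the third HD-Control library (0.08, limma adjusted p = 0.0263). With the length trend removed it was not called (-0.02, limma adjusted p = 0.56). With a single spread for all libraries, Ndufs1 and Ndufs3 were not called either (limma adjusted p = 0.162 and 0.0556). The same held for Ndufa9, Ndufaf6, Ndufaf8, Ndufa4l2, Ndufb10, Ndufs4 and Ndufab1 among the other members whose calls in this comparison are described (limma adjusted p = 0.0643, 0.213, 0.12, 0.145, 0.395, 0.102 and 0.258).

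Accessory subunits of the peripheral arm were mixed, with 5 of 9 higher, 2 lower (background 43.1% and 39.9%) and a median of 0.10. Beside Ndufv3, Ndufa9, which binds a nucleotide cofactor near the ubiquinone site, was higher (log2 change 0.26, SE 0.03), as was Ndufa6 (0.22, SE 0.03). Ndufa12, which sits where the flavin-bearing tip joins the rest of the arm, was lower (log2 change -0.17, SE 0.03), and so was Ndufs4 (-0.09, SE 0.02). The 10 subunits of the distal membrane arm, at the far end of the proton-pumping arm, included 7 higher and 1 lower, with a median of 0.12. Ndufb9 rose from 5285, 5241 and 5324 to 7591, 7543 and 7263 (log2 change 0.50, SE 0.02, limma adjusted p = 5.8e-14) without overlap, and Ndufb8 rose by a log2 change of 0.37 (SE 0.02).

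The single distal subunit that fell, Ndufb2 on chromosome 6 (39592574 to 39603382), had the largest change of any member in this comparison. Its values were 2080.4, 1978 and 2084 in WT-Control and 1099, 1041 and 1124 in HD-Control, so every HD-Control library was near 0.532 of the WT-Control level (log2 change -0.91, SE 0.03, limma adjusted p = 4.1e-15). Ndufc1, a small subunit of the proximal membrane arm, fell next most, from 1211, 1220.2 and 1199.7 to 753, 731 and 742 (log2 change -0.70, SE 0.03, limma adjusted p = 2.6e-14). Neither gene's groups overlapped.

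The proximal membrane arm, next to the peripheral arm, had more members lower than higher. Of its 9, 5 were lower and 2 higher (background 39.9% and 43.1%), with a median of -0.08. Beside Ndufc1, Ndufs5 fell from 1592, 1630.5 and 1595 to 1276, 1260.2 and 1249 (log2 change -0.35, SE 0.03), and Ndufa1 from 1951, 1915 and 1934 to 1575, 1537 and 1537 (log2 change -0.32, SE 0.03). In neither did the groups overlap. Ndufa11 was higher (log2 change 0.21, SE 0.02). Ndufa11 and Ndufs5, which went opposite ways, both hold the NRF1 letters in the sequences printed above.

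Assembly factors were lower in 5 of 8, higher in 2 (background 39.9% and 43.1%), and had a median of -0.23. Ndufaf2, which acts late in assembly, fell from 551, 481 and 586 to 368, 387 and 311 without overlap (log2 change -0.60, SE 0.07, limma adjusted p = 7.5e-07). Because 65.6% of its exon bases overlap B230220B15Rik and the library kit does not keep the strand, its reads cannot be told from that gene's. Ndufaf5, which modifies Ndufs7 (log2 change -0.25), its partner Ndufaf8 (-0.29), Ndufaf3 (-0.25) and Ndufaf1 (-0.20) were also lower. Ndufaf6, an early factor, was the exception of some size, rising from 153, 142 and 153 to 204, 213 and 196 (log2 change 0.45, SE 0.09, limma adjusted p = 1.1e-04). Ndufa4 rose by a log2 change of 0.28 (SE 0.02), its paralog Ndufa4l2 fell by 0.38 on that scale (SE 0.10), and Ndufab1, the acyl carrier of mitochondrial fatty acid synthesis, fell by 0.10 (SE 0.03).

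**Figure D2:**
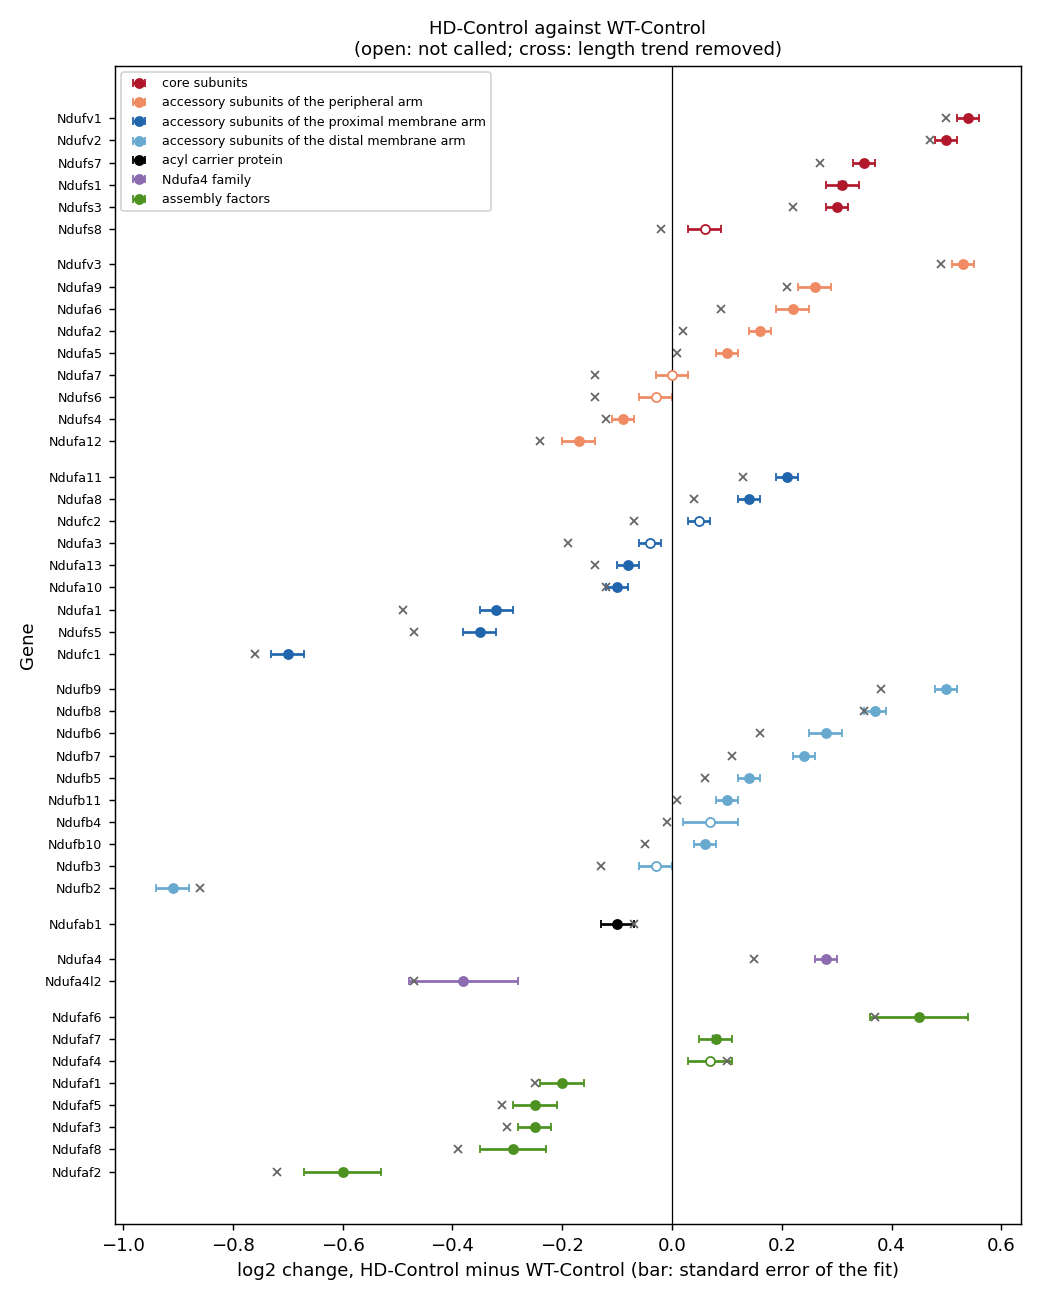
Log2 change of each member reported in HD-Control against WT-Control, ordered by role, with the standard error of the fit (bars), open points for members not called and crosses for the fit with the length trend removed. Core subunits lie above 0 with Ndufv1 at 0.54, while Ndufb2 (-0.91), Ndufc1 (-0.70) and Ndufaf2 (-0.60) are the lowest.

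Levels of the structural subunits were spread more widely in HD-Control than in WT-Control. The SD of log2 levels per kb over the 36 structural subunits was 1.13 to 1.14 in the HD-Control libraries, without overlap with the WT-Control libraries. The most abundant of the 36 exceeded the least abundant 17.6- to 18.5-fold in WT-Control and 40.1- to 45.0-fold in HD-Control. With the median transcript length in place of the longest, the SD was 0.866 to 0.869 and 1.06 to 1.08, and the ratios were 21.6 to 22.9 and 30.5 to 33.4. No test was made of these 3 libraries against 3, where the smallest two-sided exact p would miss the threshold.

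The trend with transcript length was slight in HD-Control against WT-Control. The median log2 change of all genes was 0.06 for longest transcripts under 750 bases and -0.01 for those over 5000, and across the 46 members Pearson's r between log2 change and log2 length was -0.05, a description over genes that share libraries. After removal of the length trend, 20 members were higher and 20 lower (background 43.7% and 39.0%), with a median of 0. Of the members called before, 19 stayed higher and 15 stayed lower, and no member was called in opposite directions. By role, core subunits then had 6 higher and 0 lower (median 0.29), the peripheral arm 3 and 4 (0.01), the proximal membrane arm 2 and 7 (-0.14), the distal membrane arm 5 and 2 (0.04) and assembly factors 3 and 5 (-0.27). The small rise of Ndufb10 (log2 change 0.06) was no longer called at -0.05, and Ndufc2, not called as deposited (0.05), was called lower at -0.07. The Ndufb10 call was also lost at equal totals and with upper-quartile or trimmed-mean factors (limma adjusted p = 0.135, 0.969 and 0.0585). The same held with the median transcript length in the trend and without the second WT-Control library (limma adjusted p = 0.14 and 0.166).

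Other genes that act on complex I or on mitochondria gave a context for this comparison, where 43.1% of all genes were higher and 39.9% lower. Of 10 further assembly genes, 4 were higher and 5 lower, among them Timmdc1, a membrane-arm assembly factor, which fell from 873, 820.5 and 830.5 to 375, 386 and 360.1 (log2 change -1.17, SE 0.04). Tmem126b (log2 change -0.64) and Acad9 (-0.45), both of the membrane-arm assembly complex that also holds Ndufaf1, were lower, while Ecsit of the same complex was higher (0.52). Of 16 regulators of mitochondrial biogenesis, 8 were higher and 5 lower. Of 16 general mitochondrial genes, 12 were higher and 2 lower with a median of 0.14, including the import receptor Tomm20 (log2 change 0.65) and the chaperone Hspa9 (0.70).

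Cell type markers moved in the same comparison, where 43.1% of all genes were called higher and 39.9% lower. Their defining genes were above 0 in every group. Summed over each marker list, 8 microglia markers went from 28815 to 29141 in WT-Control to 13095 to 13178 in HD-Control, with 8 of 8 called lower. The 8 oligodendrocyte markers went from 488278 to 492981 to 360125 to 362547 (8 of 8 lower), 8 astrocyte markers from 323907 to 327106 to 206653 to 208124 (6 lower, 1 higher), and 14 neuron markers from 579289 to 584286 to 547131 to 553037 (9 lower, 3 higher). Endothelial and mural markers went from 22430 to 22663 to 15456 to 15561 (5 of 8 lower, 1 higher) and 5 blood markers from 3224 to 3286 to 958 to 1030 (5 of 5 lower). Choroid plexus and ependymal markers went from 1632 to 1733 to 1882 to 1964 (4 of 8 higher, 1 lower). The part of these shifts in the members' changes was not tested. In bulk tissue, fewer cells of a type and less RNA per cell cannot be told apart.

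In HD-WNT5B, most members were far above HD-Control. A total of 42 of 46 were higher and 3 lower, with 1 not called (39 higher and 3 lower with every library brought to the same total), where 31.5% of all genes were called higher and 38.5% lower. At 1.5-fold or more, 41 were higher and 2 lower (background 28.0% and 34.4%). The median log2 change was 2.38 over the members and -0.23 over all genes. The summed values of the 46 members took 0.255 to 0.258% of all values in the HD-Control libraries and 1.44 to 1.52% in the HD-WNT5B libraries, against 0.229 to 0.234% in WT-Control. Without the second HD-WNT5B library, 42 members were higher and 2 lower, and the median was again 2.38.

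Ndufa2, a small accessory subunit of the flavin-bearing tip, had the largest rise. Its values were 1913, 1842 and 1916 in WT-Control, 2090.4, 2145 and 2083 in HD-Control and 156141, 162698 and 138479 in HD-WNT5B. The log2 change from HD-Control was 6.17 (SE 0.09, limma adjusted p = 3.0e-17), or 72.1-fold, and all 3 HD-WNT5B libraries were far from the others. By level per kb, Ndufa2 was number 16 in WT-Control, number 15 in HD-Control and the first in HD-WNT5B, and per kb of the median transcript it was number 25, number 23 and again the first.

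The next rises were in membrane-arm and peripheral-arm subunits of short transcripts. Ndufa3 went from 2170.1, 2224 and 2229 in HD-Control to 68529, 65267 and 61660.1 (log2 change 4.88, SE 0.09, limma adjusted p = 1.3e-16). Ndufa5 went from 2601, 2562 and 2562 to 70566, 76655 and 75161 (log2 change 4.84, SE 0.10), and Ndufb7 from 2608, 2765 and 2818 to 64093, 67543 and 65200.5 (log2 change 4.59, SE 0.12). Groups did not overlap for any of these, nor for any of the 42 members called higher, where 36.2% of all genes lay wholly above, and 3 members lay wholly below (42.5% of all genes). All 9 accessory subunits of the peripheral arm were higher (median log2 change 3.05), as were all 9 of the proximal (3.21) and all 10 of the distal membrane arm (2.43). At equal totals Ndufa9 turned to -0.16 and Ndufb3 stood at 0.11, neither of them called (limma adjusted p = 0.259 and 0.5). Ndufab1 rose by 3.04, Ndufa4 by 3.56 and Ndufa4l2 by 2.02 on the log2 scale.

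Ndufb2 and Ndufc1, the members lowest in HD-Control relative to WT-Control, stood far higher in HD-WNT5B, as most members did. Ndufb2 reached 24712, 23524 and 22179.5 (log2 change from HD-Control 4.43, SE 0.14), and Ndufc1 reached 12354, 14598 and 14762 (4.22, SE 0.12). Both were then above all WT-Control libraries too, by 3.52 and 3.51 on the log2 scale. Of the next lowest, Ndufaf2 changed from HD-Control by 3.45, Ndufa4l2 by 2.02, Ndufs5 by 1.24 and Ndufa1 by 2.05. The median over all members was 2.38. These comparisons share the HD-Control libraries, so the values are set side by side and no relation between the changes is drawn.

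Core subunits were divided. Ndufv1 was at 55202, 63018 and 60766 in HD-WNT5B (log2 change from HD-Control 2.56, SE 0.08), Ndufv2 at 30788, 37167 and 37812 (2.72, SE 0.11), Ndufs7 at 26936, 26670.1 and 25321 (2.79, SE 0.12) and Ndufs8 at 10702, 13081 and 15661 (2.15, SE 0.14). Each of these 4 was above every HD-Control library. Ndufs3 was at 5620, 6333 and 7990 (log2 change 0.62, SE 0.11), and at equal totals it was not called (0.07, limma adjusted p = 0.59).

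Ndufs1, of the iron-sulfur chain, fell. The gene, on chromosome 1 (63143596 to 63176833), was at 3184, 3151 and 1977 in HD-WNT5B against 9241, 9388 and 9240.1 in HD-Control (log2 change -1.78, SE 0.13, limma adjusted p = 8.0e-10). Every HD-WNT5B library was also below every WT-Control library. By level per kb, Ndufs1 moved from number 17 in HD-Control to number 43 in HD-WNT5B. Per kb of its median transcript, of 651 bases against 2661 for the longest, it moved from number 2 to number 37.

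Of the assembly factors, 6 of 8 were higher and 1 lower (background 31.5% and 38.5%), with a median log2 change of 1.87. Ndufaf2 had the largest rise, to 3722, 3757 and 4254 (log2 change 3.45, SE 0.36), with the same exon overlap with B230220B15Rik. Ndufaf4, which acts on the ubiquinone-binding part, fell from 2339.9, 2128 and 2077 to 1624, 1454 and 1486 (log2 change -0.52, SE 0.20, limma adjusted p = 0.0289). Its call was lost when any 1 of the 3 HD-WNT5B libraries was left out (limma adjusted p = 0.0684, 0.112 and 0.0816 in their order). Ndufaf6 was not called, at 227, 414 and 206. The 3 members with the NRF1 letters in capitals went different ways, with log2 changes of 4.42 for Ndufa11, 1.24 for Ndufs5 and -0.52 for Ndufaf4.

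The spread among subunits was wider still in HD-WNT5B. The SD of log2 levels per kb over the 36 structural subunits was 1.80 to 1.83, above that in all other libraries, and the most abundant exceeded the least abundant 228- to 326-fold. With median transcript lengths the SD was 1.66 to 1.74 and the ratio 89.8 to 128. These levels kept the trend with transcript length described below, and its part in the spread was not tested. No such spread was computed for other genes.

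**Figure D3:**
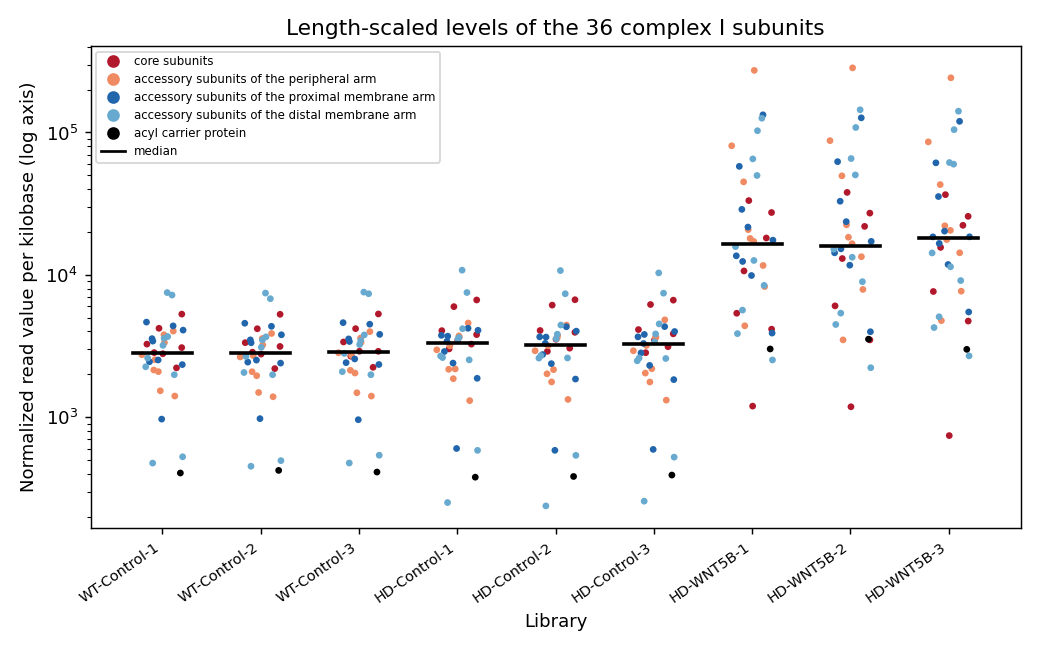
Normalized value per kb of the longest transcript (log axis) of the 36 structural subunits in each library, 1 point per gene, coloured by role, with the median as a line and points spread sideways for sight only. Points lie closest together in WT-Control and farthest apart in HD-WNT5B, where the highest is Ndufa2 (group mean 266502 per kb) and the lowest is Ndufs1 (group mean 1041 per kb).

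Change in HD-WNT5B followed transcript length over all genes. Against HD-Control, the median log2 change of all genes was 2.37 for longest transcripts under 750 bases (313 genes), 1.62 from 750 to 1000, 1.16 from 1000 to 1500, 0.50 from 1500 to 2000, -0.01 from 2000 to 3000, -0.48 from 3000 to 5000 and -1.01 above. Members are short, with a median of 994 bases against 3152 for all genes tested. In the shortest class the 13 members had a median of 2.53, near the 2.37 of all genes there. In the classes from 1500 to 2000 and from 3000 to 5000 bases the members' medians were 2.59 (5 members) and 3.04 (3 members), above those of all genes of that length. In all, 33 of 46 members lay above the median of their class, 23 above its upper quartile and 1, Ndufs1, below its lower quartile. Both the near match of the shortest class and the membership of the longer classes depended on the transcript taken. Classed by median transcript length, the 21 members under 750 bases had a median of 3.05, against 0.81 for all 1286 genes there. From 750 to 1000 bases, the 13 members then had a median of 2.17 against 0.71. From 1000 to 1500 bases, 10 members had 1.52 against 0.46, and from 2000 to 3000 bases 2 members had 1.95 against -0.33. The classes from 1500 to 2000 and from 3000 to 5000 bases then held 0 members, so the medians given for them rest on the longest transcript.

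**Figure D4:**
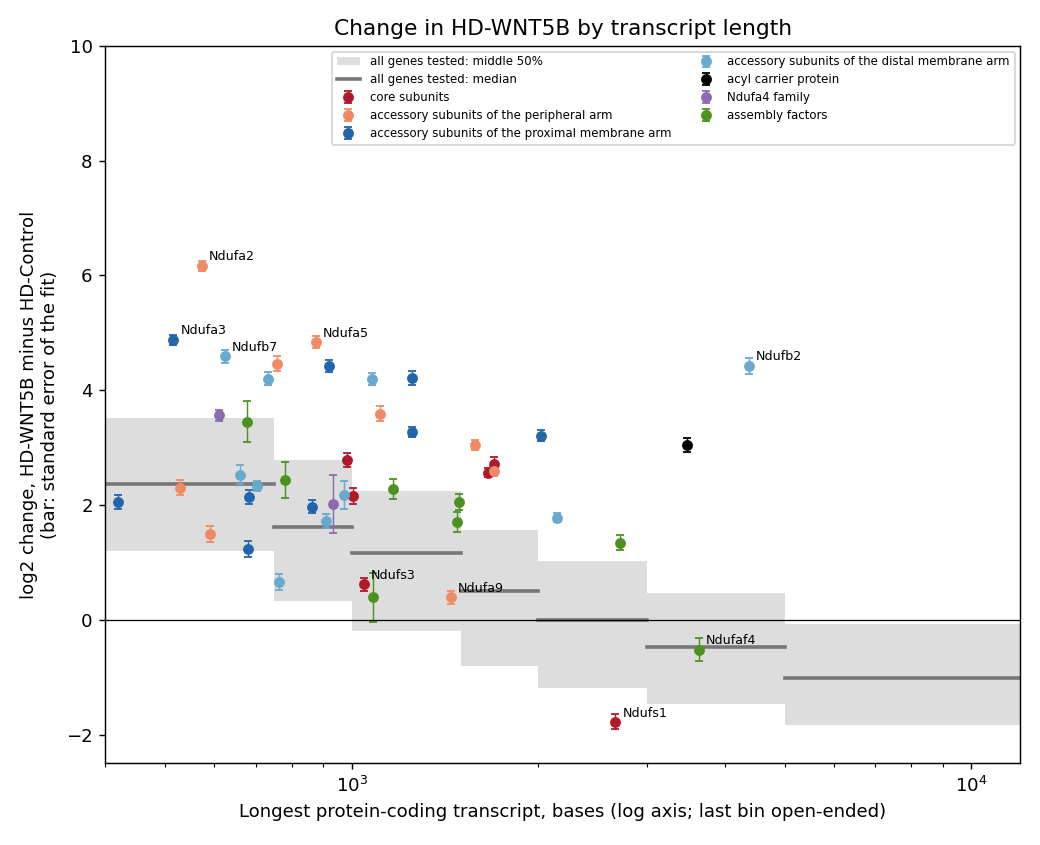
Log2 change of each member reported in HD-WNT5B against HD-Control by length of the longest protein-coding transcript (log axis), with the standard error of the fit, over the median and middle 50% of all genes tested in 7 length classes. The median of all genes falls from 2.37 to -1.01 with length, with Ndufa2 and Ndufb2 far above the middle 50% of their classes and Ndufs1 below it.

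With the length trend removed from every library, fewer members differed and some changed sign. Of the 46, 31 were higher and 9 lower in HD-WNT5B than HD-Control (background 32.3% and 33.7%), and the median log2 change was 1.29 against -0.10 over all genes. Without the second HD-WNT5B library the counts were 29 and 8 and the median 1.28, with other calls for Ndufa8, Ndufa9 and Ndufb6. By role, core subunits had 4 higher and 3 lower (median 0.73), the peripheral arm 6 and 2 (2.33), the proximal membrane arm 6 and 2 (2.20), the distal membrane arm 8 and 1 (1.13) and assembly factors 5 and 1 (0.99). Ndufab1 was at 3.30 and Ndufa4 at 1.39, and Ndufa4l2 was not called (0.49, limma adjusted p = 0.291). Ndufa2 stayed highest among the short members named here at 3.90 (SE 0.11), and Ndufb2, whose longest transcript is long, stood at 4.87 (SE 0.15). Ndufs1 was lower in both fits (-1.71, SE 0.14). The flavoprotein trio kept its rise, at 1.93 for Ndufv1, 2.13 for Ndufv2 and 2.34 for Ndufv3.

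The 6 members with opposite calls were Ndufa1, Ndufa6, Ndufa9, Ndufb3, Ndufs3 and Ndufs5. Ndufb3, a distal membrane-arm subunit of 763 bases, was at 2002, 2067 and 1987 in HD-Control and at 2948, 3418 and 3253 in HD-WNT5B, a log2 change of 0.66 (SE 0.14) as deposited and of -1.18 (SE 0.14, limma adjusted p = 9.9e-06) with the trend removed. Ndufs5 changed by 1.24 and by -0.77, Ndufa1 by 2.05 and -0.68, Ndufa6 by 1.5 and -0.72, Ndufa9 by 0.39 and -0.45, and Ndufs3 by 0.62 and -0.73. As deposited, the call of Ndufa9 was also lost without the first or the third HD-WNT5B library, at log2 changes of 0.36 and 0.30 (limma adjusted p = 0.0635 and 0.0847). Ndufa7, called higher as deposited (2.30), was not called at -0.09 (limma adjusted p = 0.444). For these 6, then, whether HD-WNT5B is called higher or lower depended on the treatment of length. Ndufaf4 was not called with the trend removed (log2 change -0.23, limma adjusted p = 0.376), and Ndufaf6 was called lower (-0.91, limma adjusted p = 0.0212). With the median transcript length in the trend, Ndufa1 kept the deposited sign and its call, Ndufa6 and Ndufs5 kept the sign only, and Ndufa9, Ndufb3 and Ndufs3 were below 0 without a call.

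Against WT-Control, which carried neither the huntingtin transgene nor WNT5B, 42 members were higher and 2 lower in HD-WNT5B (background 32.2% and 39.0%), with a median log2 change of 2.40 against -0.25 over all genes. At 1.5-fold or more the counts were 42 and 1 (background 28.6% and 35.1%). Without the second HD-WNT5B library they were again 42 higher and 2 lower, with a median of 2.43. Ndufs1 was among the lower members (log2 change -1.47, SE 0.13), and Ndufa2 was again the highest at 6.33 (SE 0.10). Ndufaf4 (log2 change -0.45, limma adjusted p = 0.0528) and Ndufaf6 (0.84, limma adjusted p = 0.0822) were not called. Both depended on the settings. Ndufaf4 was called lower under 10 alternatives, at equal totals for example (-1.03, limma adjusted p = 1.5e-04). With trends of length and GC content removed it was instead called higher (0.51, limma adjusted p = 0.0224). Ndufaf6 was called higher under 2 other estimates of the spread (limma adjusted p = 0.0179 and 0.0352). With the length trend removed, 30 were higher and 7 lower (background 33.0% and 33.7%), and the median was 0.86. Calls were opposite in the 2 fits for 5 members, which were Ndufa1 (1.73 and -1.17), Ndufa6 (1.72 and -0.64), Ndufb3 (0.64 and -1.31), Ndufs3 (0.92 and -0.51) and Ndufs5 (0.90 and -1.23).

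Regulators of mitochondrial biogenesis were more often lower than higher in HD-WNT5B. Of the 16, 3 were higher and 10 lower than in HD-Control (background 31.5% and 38.5%), with a median log2 change of -1.30. Gabpa, an ETS factor, went from 2167, 2079 and 2040.2 to 342, 628 and 206 (log2 change -2.56, SE 0.25), and Tfam, which packages mitochondrial DNA, fell by 1.33 on the log2 scale (SE 0.16). The coactivator Ppargc1a fell by 1.27 (SE 0.14), Nrf1 was not called (log2 change -0.09), and the receptor Esrra rose by 1.47 (SE 0.10). General mitochondrial genes were split, with 9 of 16 higher and 6 lower. Phb rose by 2.53 while Tomm20 fell by 1.22. Of the 10 further complex I assembly genes, 6 were higher and 1 lower, with Dmac1 at 2.68 and Timmdc1 at 2.49. With the length trend removed, regulators had 3 higher and 9 lower (median -0.95, background 32.3% and 33.7%). General mitochondrial genes had 7 and 7 (-0.10) and the further assembly genes 5 and 1. The named genes were then at -1.99 for Gabpa, -0.93 for Tfam, -0.51 for Ppargc1a, 1.33 for Esrra, 2.03 for Phb, -0.66 for Tomm20, 0.80 for Dmac1 and 1.78 for Timmdc1.

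Cell type markers moved in this comparison as well, and their defining genes were above 0 in every group. Of all genes, 31.5% were called higher and 38.5% lower here. The summed oligodendrocyte markers were 360125 to 362547 in HD-Control and 832855 to 882736 in HD-WNT5B (6 of 8 higher, 2 lower), the microglia markers 13095 to 13178 and 44623 to 49787 (5 of 8 higher), the astrocyte markers 206653 to 208124 and 180271 to 192485 (2 higher, 4 lower), and the neuron markers 547131 to 553037 and 397347 to 399752 (7 of 14 higher, 6 lower). Endothelial and mural markers were 15456 to 15561 and 44286 to 53617 (4 of 8 higher, 3 lower), choroid plexus and ependymal markers 1882 to 1964 and 13537 to 16372 (2 of 8 higher, 1 lower), and blood markers 958 to 1030 and 10616 to 13197 (4 of 5 higher). Single genes made up much of these sums, such as Cldn5, from 1646, 1673 and 1718 to 30899, 29359 and 26434, and Ttr, from 673, 677 and 687 to 10872, 12776 and 14320.3. With the length trend removed, the median log2 change of blood markers went from 3.51 to 1.38 and of microglia markers from 1.14 to 0.55. It went from 1.15 to 0.61 for choroid plexus and ependymal markers and from 1.07 to 0.88 for oligodendrocyte markers. For endothelial and mural, neuron and astrocyte markers it went from 0.06 to 0.27, 0.18 to 0.27 and -0.38 to -0.26. Genes above 0 numbered 17223 to 17349 in HD-Control and 14291 to 14588 in HD-WNT5B. The part of the markers and of the number of detected genes in the members' changes was not tested.

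Exon overlap with other genes was found for 19 of 46 members, and reached 10% of exon bases in 7 of them. Beside Ndufaf2, Ndufb6 shares 39.0% of its exon bases with Smim27, Ndufa13 shares 30.0% with Tssk6 and Ndufb9 shares 19.5% with Gm49356. Ndufb11 shares 12.9% with Rbm10, Ndufb5 12.3% with Mrpl47 and Ndufa2 11.5% with Tmco6. Of the members with large changes, Ndufb2 shares 7.94% and Ndufs1 shares 6.16% with other genes. Without strand, reads in these stretches cannot be assigned to either gene. Ndufb11 and Ndufs3 each have a transcript of another gene at 95% identity or more over at least 50% of the length (Gm6444 and Gm12251), so how their reads were assigned is uncertain, and the other 44 members have none by this measure.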

How the data were processed

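Each of the 9 libraries has 1 table with a value per gene. The authors deposited these as normalized signal values, with decimals and no division by gene length. Per the submitters' processing notes, reads were aligned with STAR to mm10, and which programs counted and normalized them is not given in the sources used here. Low values fell on whole multiples of 1 step per library for 95.9 to 98.6% of genes (tolerance 0.01), and the step was read as 1 read. Names, exons and transcript lengths came from GENCODE M21. Genes that reached 10 in 3 or more libraries were fitted with limma 3.58.1 (R 4.3.3) on log2(value + 3), with 1 mean and 1 weight per group over all 9 libraries, a trend of variance on mean and Benjamini-Hochberg adjustment over all genes tested (threshold 0.05). Fold changes on this scale understate those of low genes. For the second fit a natural spline of log2 transcript length (5 degrees of freedom) was removed from each library. In simulated data the fit kept few false calls for HD-Control against WT-Control but more than the threshold implies for contrasts with HD-WNT5B. Each contrast was also run with other scales, filters, added constants, spreads and lengths, with a replicate block and with libraries left out. The members, the lists and the rule for named genes, which gives library values for core subunits and for the 4 largest rises and falls of each contrast, were chosen with earlier results of these data known, and other members were named after their values had been seen. One listed assembly gene, Coa1, had no such symbol in the tables. Values of 1 member are not reported here, although it is included in the counts and medians.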

Additional observations from a re-analysis of the deposited data

How the results depend on the processing

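Most counts and medians moved little under the alternatives run, and those that moved more were these. For HD-Control against WT-Control, a spread shared without group weights gave 13 members higher and 9 lower (8 and 12 with the length trend removed), and over all genes 3774 higher and 3183 lower in place of 6635 and 6144. The median of the members there was 0 with the length spline, 0 with length and GC splines, 0.04 at equal totals and 0.01 with upper-quartile factors. For HD-WNT5B against HD-Control it was 1.29 with the length spline, 1.42 with length and GC, 1.42 with median length and 1.83 at equal totals, and 9 and 8 members were lower with length and with length and GC. For HD-WNT5B against WT-Control the medians were 0.86, 1.15, 1.52 and 1.82, with 7 and 8 members lower. Equal totals shifted the median of all genes by -0.53 and -0.55 in these contrasts, so that members stood 2.59 and 2.62 above it, against 2.61 and 2.65 as deposited, and over all genes they gave 3414 higher and 7804 lower against HD-Control in place of 4860 and 5937, and 3435 and 7989 against WT-Control in place of 4955 and 6005. Leaving out 1 library gave medians of 1.21 to 1.38 for HD-WNT5B against HD-Control with the length trend removed. For the members named, signs turned in HD-Control against WT-Control, with length and with length and GC, for Ndufs8 (-0.02, -0.01), Ndufb10 (-0.05, -0.04), Ndufb4 (-0.01, -0.01) and Ndufc2 (-0.07, -0.06), and with upper-quartile factors for Ndufc2 (-0.01). Against HD-Control they turned with length and with length and GC for Ndufa1 (-0.68, -0.36), Ndufa6 (-0.72, -0.83), Ndufa7 (-0.09, -0.33), Ndufa9 (-0.45, -0.10), Ndufaf6 (-0.91, -0.69), Ndufb3 (-1.18, -0.66), Ndufs3 (-0.73, -0.83) and Ndufs5 (-0.77, -0.48), with length and GC for Ndufaf4 (0.35), with median length for Ndufa9 (-0.10), Ndufaf6 (-0.31), Ndufb3 (-0.28) and Ndufs3 (-0.10), and at equal totals for Ndufa9 (-0.16) and Ndufaf6 (-0.16). Against WT-Control they turned in the same pair of settings for Ndufa1 (-1.17, -0.85), Ndufa6 (-0.64, -0.75), Ndufa7 (-0.23, -0.46), Ndufb3 (-1.31, -0.83), Ndufs3 (-0.51, -0.61), Ndufs5 (-1.23, -0.94) and Ndufaf6 (-0.54, -0.31), for Ndufa9 with length (-0.24), for Ndufaf4 with length and GC (0.51), and with median length for Ndufb3 (-0.33) and Ndufs5 (-0.21). The cause was not tested. Libraries of the same number did not deviate together (correlations of -0.0225 to 0.0238), and the replicate block gave 23 higher and 15 lower, 42 and 3, and 42 and 2, the deposited counts. The planned edgeR and DESeq2 fits were not run, because whole reads could not be recovered from every value of the tables.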
